A study of Mus musculus and Oryctolagus cuniculus and Sus scrofa with 20 samples.

Results

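The 2 wild type cultures of mouse spermatogonial stem cells (SSCs) in this series were set side by side, 2 of the 20 samples, to see how far small RNA profiles of untreated cells of 1 kind differ between libraries. One was sequenced as the first stage of a mouse series that runs to mature sperm (the stage series culture), and the other as the wild type control of a miR-741 knockout experiment (the control culture). Both were chosen by their labels, which give male, wild type, cultured SSCs with no treatment. The labels give the strain as C57BL/6 with no age for the stage series culture, and as C57BL/6 x DBA2 F1 at postnatal day 15 for the control. The growth protocol attached to both describes SSCs taken from an F1 male with an actin-EGFP transgene and plated on mouse embryonic fibroblast feeder cells, so the strain of the first culture is not settled by the labels. Both feeder cells and SSCs can contribute RNA, and in such bulk samples fewer cells of a type and less RNA per cell cannot be told apart. A further 3 libraries are given beside them: the miR-741 knockout lines made with TALEN and CRISPR plasmids, which grew from single picked colonies of F1 SSCs, and wild type pre-leptotene spermatocytes of C57BL/6 mice at postnatal day 9. The knockout lines carry the F1 strain and day 15 labels of the control. Each side is 1 library, so no test of the cultures is possible. Intervals (95%) cover counting error only, and culture, strain and library preparation cannot be told apart.

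SSCs are the germline cells that maintain sperm production, and in culture they renew themselves on feeder cells. MicroRNAs (miRNAs) are short RNAs that guide Argonaute proteins to messenger RNAs, mainly through the seed near their 5′ end. piRNAs are longer, bind PIWI proteins in germ cells and usually begin with U, and tRNAs can be cut into fragments that keep the 5′ end. The let-7 family is known for rising as cells differentiate, and the miR-506 family is a large X-linked group expressed mainly in the testis.

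The mature sequences of miRNAs on which the comparison turned are shown first, from RefSeq (GRCm38.p6), as DNA with the seed (bases 2 to 8) in capitals. The first 6 carry 1 seed and were all higher in the control. The next 3 were also higher there. miR-449a and miR-449c share a seed and were among the lowest in the control, as was miR-450b. miR-106a, miR-92b and the knockout target miR-741 close the set.
let-7e-5p: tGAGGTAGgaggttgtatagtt
let-7a-5p: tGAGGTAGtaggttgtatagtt
let-7c-5p: tGAGGTAGtaggttgtatggtt
let-7d-5p: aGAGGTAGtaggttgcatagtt
let-7b-5p: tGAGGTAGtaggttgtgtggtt
let-7f-5p: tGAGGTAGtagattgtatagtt
miR-99a-5p: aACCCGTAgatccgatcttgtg
miR-125a-5p: tCCCTGAGaccctttaacctgtga
miR-130b-5p: aCTCTTTCcctgttgcactact
miR-449a-5p: tGGCAGTGtattgttagctggt
miR-449c-5p: aGGCAGTGcattgctagctgg
miR-450b-5p: tTTTGCAGtatgttcctgaata
miR-106a-5p: cAAAGTGCtaacagtgcaggtag
miR-92b-3p: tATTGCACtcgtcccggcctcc
miR-741-3p: tGAGAGATgccattctatgtaga

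The stage series library held 20302560 reads and the control 1449449, a ratio of 14.01, and reads assigned to miRNAs numbered 5129559 and 468367, a ratio of 10.95. Other SSC libraries of the series were shallower still, with 843664 (TALEN line) and 597732 reads (CRISPR line). The stage series library also held more different sequences for its depth. Drawn down to the control's total it kept 501665 distinct sequences, against 181473 in the control. With all libraries drawn down to 597732 reads, it had 2.51 reads per distinct sequence, the control 5.15, the TALEN line 4.75, the CRISPR line 6.03 and pre-leptotene spermatocytes 5.81. The part of repeated copying of the same molecules in these values was not tested.

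Germ cell miRNAs led both cultures, and their levels were close. The miR-506 family took 45.2% of miRNA reads in the stage series culture and 46.8% in the control. miR-741-3p, the most abundant miRNA of both libraries, took 13.9% and 17.1%, a log2 difference (control minus stage series, from reads per 1000000 miRNA reads, written miRNA RPM below) of 0.30 with an interval of 0.29 to 0.31. Its mature sequence maps to bases 66796809 to 66796831 of the X chromosome. In the TALEN and CRISPR lines it stood at 11.7 and 25.4 miRNA RPM, against 171011 in the control, which goes with the wild type label of the control. The second in both was miR-871-3p of the same family, at 9.32% and 8.72%. miR-470-5p, also of the family, took 4.42% and 5.36%.

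Outside the family the leading miRNAs were shared too. miR-21a-5p, known in cultured spermatogonia, took 4.98% of miRNA reads in the stage series culture and 4.30% in the control, and miR-10a-5p, a HOX cluster miRNA, 3.52% and 5.66%. miR-7a-5p took 3.89% and 2.92%. The 5 most abundant miRNAs of the 2 libraries differed in 1 place, held by miR-7a-5p in the stage series culture and by miR-10a-5p in the control.

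Markers of other cells were checked against the label. The fibroblast-defining miRNAs (miR-199a-5p, miR-199a-3p, miR-214-3p, miR-22-3p and miR-31-5p were in the reference, of 7 listed) summed to 2.31% of miRNA reads in the stage series culture and 1.94% in the control, with 0.920% in the TALEN and 1.06% in the CRISPR line. miR-202-5p, miR-202-3p and miR-204-5p, markers of Sertoli and other gonadal somatic cells, had 15 reads in the stage series culture and 1 in the control. miR-451a, abundant in red blood cells, had none in either library, and the blood cell list summed to 0.0183% and 0.0109%. The endothelial miR-126a-3p stood at 326 and 322 miRNA RPM and the neural miR-9-5p at 97.3 and 53.4. miR-143-3p, miR-145a, miR-199b-5p, miR-375-3p, miR-486a-5p, miR-150-5p, miR-292a-3p, miR-302a-3p, miR-34c-5p, miR-449b, miR-376c-3p, miR-485-5p, miR-487b-3p, miR-1a-3p, miR-133a-3p, miR-126a-5p, miR-122-5p and miR-124-3p were not analysed here.

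With at least 100 reads required in 1 library, 320 miRNAs were measured, and 75 differed at least 2-fold (23.4%). Of these, 10 were higher in the control (3.12%) and 65 lower (20.3%), and 14 differed at least 4-fold (4.38%), all lower. Counting every difference, 220 of the 320 were lower in the control (68.8%) and 100 higher, with a median of -0.32. Of the 65 lower miRNAs, 57 had under 100 reads in the control and 30 under 10. Among the 146 miRNAs with at least 100 reads in both libraries, 8 were at least 2-fold higher and 8 lower (11.0%), none passed 4-fold, and the median difference was -0.11. Scaling also moved the split: with TMM factors, which shift every difference up by 0.33, 27 of the 320 were at least 2-fold higher and 48 lower, and 157 of the 320 (49.1%) were lower by any amount. Across the 146 miRNAs the levels had a Spearman correlation of 0.944, and the SD of the log2 difference was 0.68; miRNAs are not independent replicates.

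**Figure D1:**
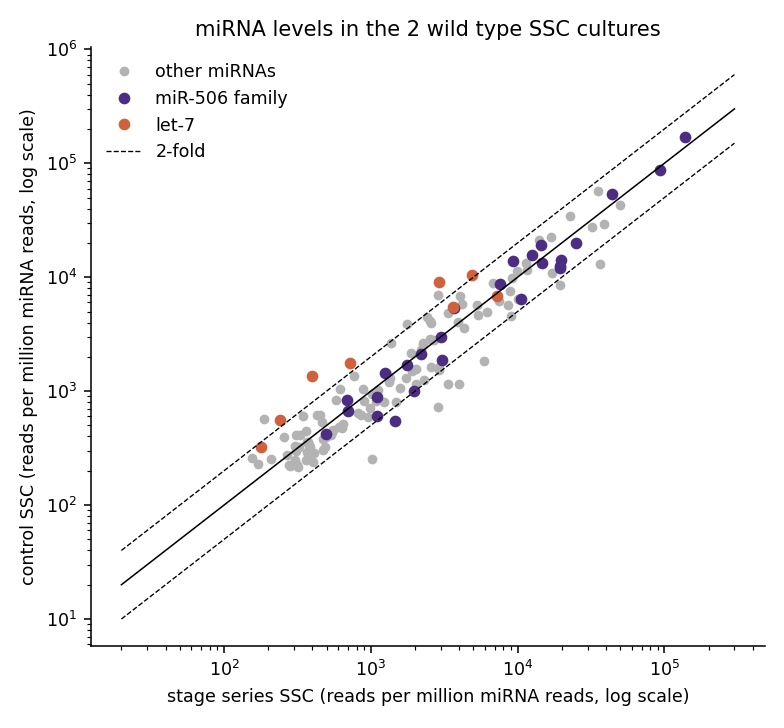
Levels of the 146 miRNAs with at least 100 reads in both libraries, in miRNA RPM on log scales (x, stage series culture; y, control). Each point is 1 miRNA; the solid line marks equal levels and the dashed lines 2-fold differences. All but 1 of the miR-506 family points lie between the dashed lines, and 5 let-7 points lie above the upper one.

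Most of the let-7 family was higher in the control. Of its 8 measured entries, 7 were higher there and 5 of them at least 2-fold, with a median difference of 1.16. Over all 320 miRNAs 100 were higher, 10 of them at least 2-fold, and the median was -0.32. All 8 let-7 entries had at least 100 reads in both libraries. Of the 146 such miRNAs, 8 were at least 2-fold higher, and the median was -0.11. The summed let-7 share of miRNA reads was 2.03% in the stage series culture and 3.59% in the control. let-7e-5p (chromosome 17, 17830366 to 17830387, plus strand) had 2038 and 635 reads, which are 397 and 1356 miRNA RPM, 3.41-fold higher in the control (log2 1.77, interval 1.64 to 1.90). let-7a-5p and let-7c-5p, which share their first 18 bases and were counted as 1 entry, stood at 2931 miRNA RPM in the stage series culture and 9034 in the control (log2 1.62, interval 1.57 to 1.67). These 2 entries differed most within the family. With TMM factors all 8 were higher and the median was 1.49.

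The other members spanned a wide range. let-7d-5p stood at 717 and 1749 miRNA RPM (log2 1.29), let-7b-5p at 241 and 555 (1.21) and let-7f-5p at 4899 and 10552 (1.11). miR-98-5p (0.84) and let-7g-5p (0.60) were higher by less than 2-fold. let-7i-5p, the most abundant of the family in the stage series culture, stood at 7273 and 6834 miRNA RPM, a difference of -0.09 that turned to 0.24 with TMM factors. The knockout lines lay between the cultures for let-7e-5p, at 1112 (TALEN) and 899.6 miRNA RPM (CRISPR), and for the let-7a and let-7c entry, at 5918 and 5113. The summed let-7 share was 2.26% in the TALEN line and 2.23% in the CRISPR line, nearer to the stage series culture than to their own control.

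Some neighbours of let-7 genes were also higher in the control. miR-125a-5p, which lies beside let-7e on chromosome 17 and shares its seed with miR-125b, stood at 1774 miRNA RPM in the stage series culture and 3897 in the control (log2 1.14). miR-99b-5p lies in the same cluster, whose summed difference was 0.54. miR-99a-5p, which lies beside a let-7c gene on chromosome 16 (77598940 to 77598961, plus strand), stood at 2870 and 7046 miRNA RPM (1.30). Its seed relative miR-100-5p stood at 3358 and 4879 (0.54), and miR-125b-5p at 4020 and 6862 (0.77). Among 27 genomic clusters of at least 3 measured entries within 10000 bases of each other, which leave out the pair on chromosome 16, the 2 with the highest summed difference held let-7 genes: let-7b and let-7c on chromosome 15 (1.56), and let-7a, let-7f and let-7d on chromosome 13 (1.30). Entries that cannot be split between loci count in each of these clusters.

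The remaining miRNAs of the 10 largest differences upward were miR-130b-5p at 187 and 572 miRNA RPM (log2 1.62), miR-674-3p at 74.5 and 175 (1.23) and miR-379-3p at 83.8 and 173 (1.04). The last 2 had 82 and 81 reads in the control.

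The 10 largest differences downward all rest on few control reads. miR-449c-5p had 464 reads in the stage series culture and 2 in the control (log2 -4.40, interval -7.45 to -2.54), and miR-449a-5p, its seed relative in the same cluster on chromosome 13, 647 and 7 (-3.08, interval -4.40 to -2.03). The passenger strand miR-449a-3p had 132 and 2. The 3 members of this cluster, known from meiotic and multiciliated cells, thus stood together at 1243 reads against 11, a summed difference of -3.37. In the knockout lines miR-449a-5p stood at 85.8 (TALEN) and 5.08 miRNA RPM (CRISPR), beside 126 and 14.9 in the cultures; the CRISPR value is 1 read. miR-34a-5p, which carries the same seed, stood at 499 and 393 miRNA RPM (-0.35), while miR-34b-3p (0.42) and miR-34c-3p (0.57) of the same list were higher.

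Outside that cluster, miR-450b-5p, of the X-linked cluster with miR-322 and miR-503, had 511 and 3 reads (log2 -3.96), and all 8 measured members of that cluster were lower in the control, 3 of them at least 2-fold, with a summed difference of -0.61, beside 68.8% lower and 20.3% at least 2-fold lower over all miRNAs. With TMM factors miR-322-3p turned from -0.06 to 0.27. miR-3471 had 2335 and 14 reads (-3.93), miR-154-5p 127 and 1 (-3.54) and miR-181a-1-3p 341 and 4 (-2.96). miR-31-3p had 294 reads in the stage series culture and 0 in the control. With the control set to a floor of 3 reads it was 8.95-fold lower (log2 -3.16), and the upper end of its interval was -2.85. Its partner strand miR-31-5p stood at 1280 and 1424 miRNA RPM. miR-877-3p had 144 and 2 reads, and miR-345-5p 251 and 4.

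Among miRNAs with at least 100 reads in both libraries, named after their values were seen, miR-92b-3p stood at 1016 and 254 miRNA RPM (log2 -1.999). The skin and epithelial miRNA miR-203-3p stood at 2882 and 730.2 (-1.98). miR-1195 (-1.80), miR-3470b (-1.68) and miR-101a-3p (-1.54) came next, then miR-30e-5p at 36253 and 13026 (-1.48). The others at least 2-fold lower were miR-883a-5p (-1.43) and miR-148a-3p (-1.19). In the knockout lines miR-30e-5p stood at 64118 (TALEN) and 55664 (CRISPR), above both cultures. miR-92a-3p, which differs from miR-92b-3p outside the shared seed, stood at 11377 and 13378 (0.23).

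Of the 28 measured members of the miR-506 family, 9 were higher and 19 lower in the control, beside 100 and 220 of all 320 miRNAs, and 1 passed 2-fold, miR-883a-5p with 7483 and 254 reads (log2 -1.43). The family's highest member was the joint entry of miR-465a-3p, b and c (0.57), and its median of -0.11 turned to 0.22 with TMM factors. The miR-290 cluster, characteristic of pluripotent cells and also read in cultured SSCs, had 9 of 10 measured members lower, from miR-293-5p (-1.53) to miR-290a-5p (-0.12), with miR-294-3p higher (0.63), beside 68.8% lower over all miRNAs. Its summed share was 0.535% in the stage series culture and 0.351% in the control, and with TMM factors 3 of the 10 were higher. Of 26 measured miRNAs in a list for the imprinted Dlk1-Dio3 cluster, 22 were lower. Their median was -0.41, beside 68.8% lower and a median of -0.32 over all miRNAs. miR-543-3p was the highest of the list (0.61) and miR-154-5p the lowest, and with TMM factors 12 of the 26 were higher. The list leaves out other members, among them miR-379-3p (1.04). Grouped by position, the larger chromosome 12 cluster had 10 of 36 entries higher and a summed difference of 0.02. The smaller had 2 of 12 higher and -0.59.

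Lists tied to proliferation and self-renewal had members on both sides. In the miR-17 and miR-106 clusters 4 of 11 were higher and 7 lower, near the shares over all miRNAs, from miR-106a-5p with 313 and 5 reads (log2 -2.51) to miR-25-3p at 6809 and 8809 miRNA RPM (0.37). The list linked to SSC self-renewal had 3 higher and 5 lower. miR-222-3p was its highest (615 and 1042 miRNA RPM, 0.76) and miR-146a-5p stood at 4289 and 3602 (-0.25). miR-182-5p stood at 11671 and 11653, and its cluster partner miR-183-5p at 22745 and 34142 (0.59). The medians of both lists, -0.28 and -0.11, turned above 0 with TMM factors. Of 14 measured feeder or stromal miRNAs, 9 were higher, beside 100 of all 320 miRNAs. They ranged from miR-22-3p (-0.65) to miR-99a-5p. With TMM factors 11 of the 14 were higher, beside 163 of the 320. The summed difference of the epithelial list was -1.55, and miR-203-3p gave 14785 of its 17467 reads in the stage series culture. Of its 6 measured members 4 were lower, beside 68.8% lower over all miRNAs. Among the 4 were miR-200a-3p (-1.90), miR-205-5p (-1.20) and miR-200b-3p (-0.38). miR-200c-3p (0.56) and miR-141-3p (0.76) were higher in the control with 69 and 50 reads. With TMM factors 2 of the 6 were higher, 1 of them at least 2-fold.

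**Figure D2:**
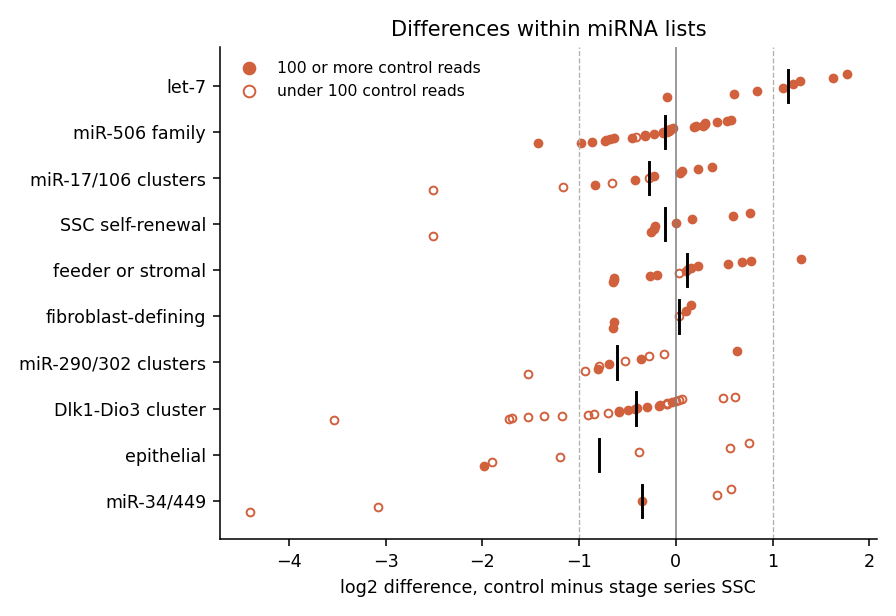
Log2 differences (control minus stage series culture, miRNA RPM) of the measured members of 10 lists. Each point is 1 miRNA, filled with 100 or more control reads and open with fewer; black bars are medians and dashed lines mark 2-fold. The let-7 points lie to the right (median 1.16), and the farthest points to the left are open.

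As a yardstick, other pairs of libraries were counted the same way. As deposited, 47 of 150 miRNAs differed at least 2-fold between the control and the TALEN line (31.3%), 30 of 147 between the control and the CRISPR line (20.4%), and 1 of 120 between the 2 knockout lines (0.833%). The stage series culture differed from pre-leptotene spermatocytes in 269 of 333 (80.8%), from the TALEN line in 112 of 320 (35.0%) and from the CRISPR line in 85 of 320 (26.6%). These numbers mix depths. With all libraries drawn down to the smallest miRNA total, the wild type cultures differed in 17 of 117 miRNAs (14.5%). On that scale the control differed from the TALEN line in 41 of 118 (34.7%) and from the CRISPR line in 27 of 116 (23.3%). The knockout lines differed from each other in 1 of 117 (0.855%). The stage series culture differed from the TALEN line in 35 of 122 (28.7%), from the CRISPR line in 26 of 119 (21.8%) and from pre-leptotene spermatocytes in 86 of 115 (74.8%). At that depth the share between the wild type cultures was below those of either culture against a knockout line, and that between the knockout lines was lowest. As deposited, the control and the CRISPR line had a lower share (20.4%) than the wild type cultures (23.4%). Pairs share libraries, each pair is 1 library against 1, and the differences between these shares were not tested.

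**Figure D3:**
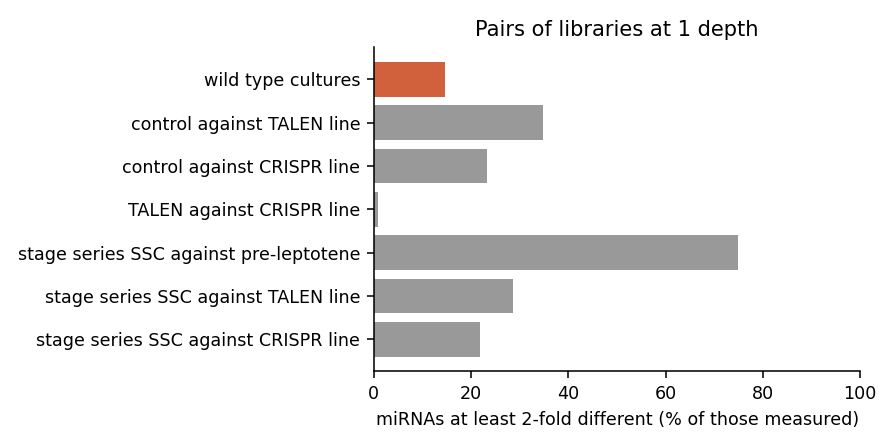
Share of measured miRNAs that differed at least 2-fold between 2 libraries (x, percent), with every library drawn down to the smallest miRNA total. The bar of the wild type cultures, in orange, reaches 14.5%, below both bars of the control against a knockout line (34.7% and 23.3%).

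The 3′ ends of miRNAs were nearly the same in both cultures. For 92 miRNAs with at least 300 reads in both, the mean 3′ end was taken relative to the RefSeq end. It lay later in the control for 49 and earlier for 43, with a median shift of 0.0053 nt and an SD of 0.139 nt, and 2 lay later and 6 earlier by over 0.25 nt. Over all miRNA reads placed on a hairpin, 58.3% in the stage series culture and 58.9% in the control ended at the RefSeq base. Reads that ended beyond the RefSeq base, with or without final bases not in the hairpin, made up 23.8% and 20.9%. In the knockout lines 49.1% (TALEN) and 49.2% (CRISPR) ended at the RefSeq base, and in pre-leptotene spermatocytes 73.0%. Such pooled shares also depend on which miRNAs are abundant. miR-741-3p, which mostly ended at the RefSeq base, took 17.1% of miRNA reads in the control and had few reads in the knockout lines. Ends of single miRNAs were compared between the 2 cultures only, so a difference in 3′ ends of the knockout lines was not tested. Reads with 1 or 2 final bases not in the hairpin, as terminal transferases add, took 7.22% and 7.68% in the cultures and 7.21% to 7.81% in the other 3 libraries. Added A made up 2.24% and 2.69% and added T 3.44% and 3.52%.

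The largest shifts toward a shorter end in the control were those of miR-224-5p (-0.61 nt), miR-541-5p (-0.58), miR-30a-5p (-0.34), miR-362-5p (-0.29) and miR-125b-5p (-0.27). For miR-125b-5p, 34.7% of stage series reads and 52.9% of control reads ended before the RefSeq base. The reads of miR-224-5p ended mostly beyond it, with 26.1% of stage series reads and 10.6% of control reads exactly 4 bases further. The largest shifts toward a longer end were those of miR-871-5p (0.37), miR-743a-5p (0.28), miR-463-5p (0.19), miR-743b-5p (0.15) and miR-872-3p (0.13). The first 4 are 5′ arms of the miR-506 family. Its most abundant member, miR-741-3p, ended at the RefSeq base in 91.3% and 90.6% of reads, with an added A in 1.90% and 4.05%.

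Read lengths differed between the cultures. Reads of 25 to 32 nt, the size of piRNAs and many tRNA fragments, made up 50.6% of the stage series library and 32.1% of the control. Reads of 20 to 24 nt made up 35.7% and 50.7%, and those of 17 to 19 nt 3.69% and 8.79%. The knockout lines lay nearer to the control. Their shares of 25 to 32 nt were 34.6% (TALEN) and 27.5% (CRISPR), and those of 17 to 19 nt 8.27% and 11.5%. In pre-leptotene spermatocytes the shares were 21.2% and 4.15%.

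Reads matching GENCODE vM21 transcripts showed where the shares lay. Reads within protein-coding transcripts made up 17.3% of the stage series library and 10.3% of the control, and those within long noncoding RNAs 9.82% and 5.21%. Reads of snoRNAs, which guide RNA modification, made up 2.21% and 3.61%, and those of mitochondrial rRNA 0.276% and 0.133%. Reads that begin as a miRNA does made up 25.3% and 32.3%, and those with no match 23.8% and 22.5%. The largest ratio was that of 5S rRNA, the small RNA of the large ribosomal subunit, described next.

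**Figure D4:**
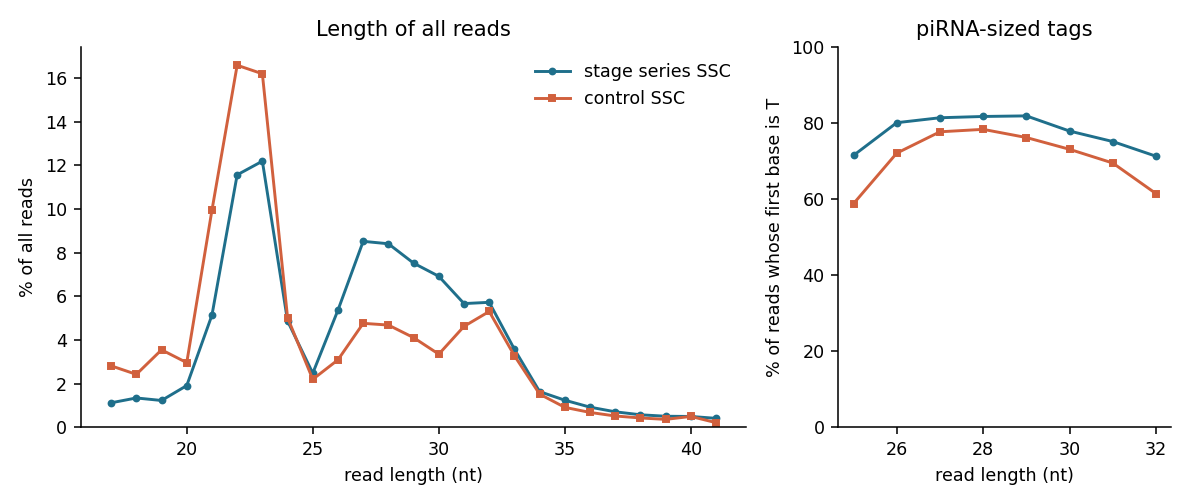
Left, share of all reads (y, percent) at each length (x, nt) in the 2 cultures; right, share of piRNA-sized tags whose first base is T at each length. The control is above at 22 nt (16.6% against 11.6%) and below at 28 nt (4.68% against 8.404%), and its first-base share is lower at every length from 25 to 32 nt.

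Fragments of 5S rRNA were counted as exact matches to a single annotated copy, the one that held the most control reads. They formed 0.281% of the stage series library (interval 0.279 to 0.283) and 4.04% of the control (4.01 to 4.07). In the control 94.3% of them ended at base 95 of the 119-base RNA, and the commonest first base was 77, in 40.7%. In the stage series culture the commonest end was the true 3′ end, base 119, in 37.9%. The knockout lines had 2.92% (TALEN) and 8.18% (CRISPR), of which 79.6% and 89.7% ended at base 95; all 3 libraries of the knockout experiment thus lay above the stage series culture. Pre-leptotene spermatocytes had 0.468%, mostly ending at base 119. Reads with no exact rRNA match that share 14 bases with a 5S copy are not in these shares. They formed 0.356% of the stage series library and 0.738% of the control, a smaller ratio than that of the exact matches. The shares were 1.24% (TALEN), 2.63% (CRISPR) and 0.692% (pre-leptotene) in the other libraries. A further abundant set of tags shared a 3′ end and matched no reference sequence. It formed 50196 reads per 1000000 reads (RPM) in the control, 2616 in the stage series culture, 21940 (TALEN), 15773 (CRISPR) and 14580.5 (pre-leptotene). The commonest tag of each set is printed with its shared last 14 bases in capitals. The 5S tag lies in 41 of 180 annotated 5S copies and has no single place in the genome.
5S fragment: acttgGATGGGAGACCGCC
unmatched fragment: tcttagaTCGATGTGGTGCTC

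The first of these tags had 1669 reads (82.2 RPM) in the stage series culture and 23472 (16194 RPM) in the control. The second had 29669 (1461 RPM) and 34616 (23882 RPM). miRNA RPM values do not include reads of either set.

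tRNA 5′ fragments took close shares in the 2 cultures but differed in length. Reads of 25 to 36 nt that start like a tRNA made up 11.7% of reads in the stage series culture and 10.8% in the control. The log2 difference was -0.12, and the share reached 8.79% in the TALEN and 9.80% in the CRISPR line. Fragments of glycine tRNAs read by 5 starts made up 62.2% of them in the stage series culture and 59.2% in the control. Leading tags are printed with the 9-base start used to find them in capitals.
Gly 30 nt: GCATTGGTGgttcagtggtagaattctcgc
Gly 31 nt: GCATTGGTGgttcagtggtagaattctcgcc
Gly 32 nt: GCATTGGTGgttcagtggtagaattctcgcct
Gly 32 nt, second start: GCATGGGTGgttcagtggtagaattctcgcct
Val 33 nt: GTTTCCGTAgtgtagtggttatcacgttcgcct
Glu 32 nt: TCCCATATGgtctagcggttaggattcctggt

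The first 3 differ only in their 3′ end, and they differed in their levels. The 32 nt form stood at 12305 RPM in the stage series culture and 14521 in the control, and the 31 nt form at 10602 and 11005. The 30 nt form stood at 9814 and 1056. Of all fragments with this start, the 30 nt form thus made up 27.3% in the stage series culture and 3.65% in the control, with 1.96% (TALEN) and 1.46% (CRISPR) in the knockout lines. The second glycine start, GCATGGGTG, showed the same, with 21.6% and 3.16% of its fragments at 30 nt, as did GCATTTGTG with 30.7% and 4.36% and GCATTGGTA with 32.5% and 8.69%. For GCATTGTGG, which lacks 1 G and is 1 base shorter, the form at 29 nt made up 26.98% and 3.94%. The shorter form thus took a smaller share in the control for each of these 5 starts. The starts differ by few bases, and reads of some can be variants of another, so these are not 5 independent observations.

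Fragments of other tRNAs differed in level. Of the 27 starts, which include the similar glycine starts above, 8 were higher in the control and 19 lower. At least 2-fold were 2 and 7 of them. The valine fragments with start GTTTCCGTA made up 0.779% of the stage series library and 1.70% of the control (log2 1.12), with 0.664% (TALEN) and 0.865% (CRISPR) in the knockout lines. Their leading 33 nt tag, shown above, stood at 2633 and 7316 RPM. Histidine fragments with the extra 5′ G that histidine tRNAs receive after transcription (start GGCCGTGAT) made up 0.0758% and 0.203% (1.42), while those without it made up 0.102% and 0.0828%. Glutamate fragments with start TCCCATATG were lower, at 0.298% and 0.123% (-1.28), and those with start TCCCACATG at 0.578% and 0.297% (-0.96). The 32 nt glutamate tag shown above had 15209 and 95 reads. Lysine fragments with start GCCCGGATA made up 0.513% and 0.252% (-1.02), and those with GCCCGGCTA 1.17% and 0.984%.

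**Figure D5:**
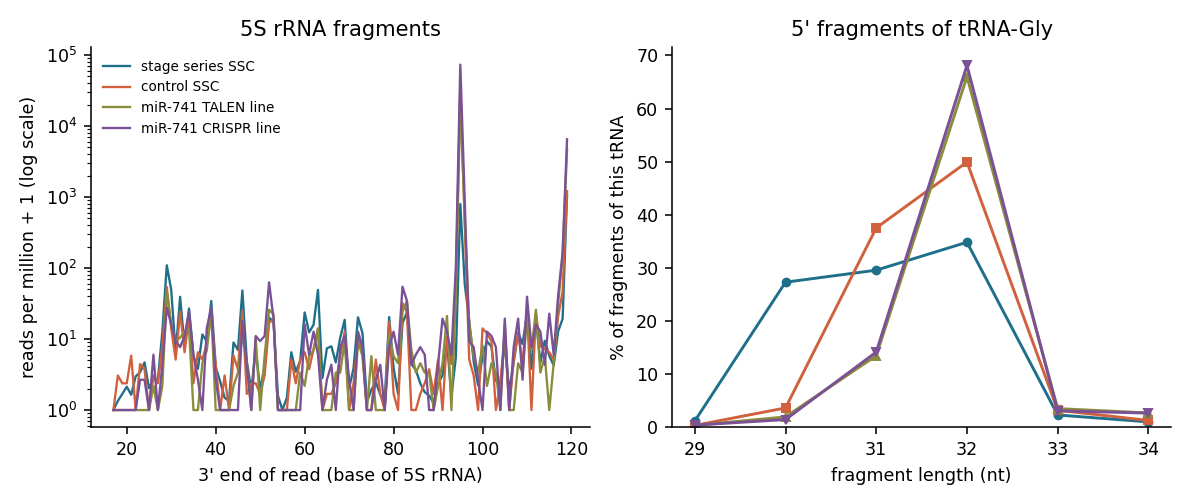
Left, RPM plus 1 (y, log scale) by the base of 5S rRNA at which they end (x); right, share of glycine tRNA fragments of the commonest start (y, percent) at each length (x, nt), in the 2 cultures and the 2 knockout lines. The peak at base 95 is lowest in the stage series culture, and its 30 nt point (27.3%) is above the 3 others (1.46% to 3.65%).

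piRNA-sized tags, reads of 25 to 32 nt left after miRNA, tRNA, 5S and other annotated small RNA sequences were set apart, made up 37.3% of the stage series library and 20.01% of the control. The TALEN and CRISPR lines had 23.1% and 15.1%, and pre-leptotene spermatocytes 11.9%. Both cultures showed the first-base T typical of piRNAs, in 79.6% of reads (stage series) and 73.7% (control). It was present at every length, highest at 29 nt in the stage series culture (82.0%) and at 28 nt in the control (78.4%), and lower in the knockout lines (70.3% and 64.3%). Counted once per sequence at the depths deposited, the shares were 77.0% and 75.6%. With the stage series library drawn down to the control's total, its share was 78.9%. A at base 10, which marks piRNAs made by the ping-pong cycle, was found in 37.3% and 30.3% of the reads that do not begin with T. In reads that begin with T it was found in 32.1% and 30.5%, so the control had no excess over reads. Of sequences without first-base T, counted once, 33.6% and 32.96% had it at the depths deposited. Of those with first-base T, 29.5% and 30.1% had it. In the stage series library drawn down to the control's total, these shares were 35.7% without and 30.4% with first-base T. Among reads with first-base T, lengths of 26 to 28 nt made up 55.4% and 55.4%, and in the knockout lines 48.9% and 46.8%.

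Sense matches to transcripts made up 60.6% of piRNA-sized reads in the stage series culture and 58.9% in the control, antisense matches 18.2% and 15.3%. Reads in a single protein-coding gene made up 36.3% and 36.4%. Of 151 genes with at least 100 such reads in both libraries, 11 differed at least 2-fold relative to all piRNA-sized reads (7.28%), 9 of them higher in the control. With at least 100 reads required in 1 library only, 534 of 4499 genes were at least 2-fold higher and 762 lower on the same scale (28.8%). The levels had a Spearman correlation of 0.761 over the 151 genes, which are not independent replicates. Among the genes with the most reads in the stage series culture, picked after their values were seen, were D10Wsu102e with 4514 RPM in the stage series culture and 1650 in the control, Abl2 with 1440 and 596, Gabpb2 with 1333 and 589, and Cbx5 with 1327 and 793. Relative to piRNA-sized reads their log2 differences were -0.55, -0.38, -0.28 and 0.16. Most single sequences were not shared. With the deep library drawn down to the control's total, 23149 sequences were shared, 6.43% of the 359904 in the stage series culture and 21.5% of the 107643 in the control, and they held 37.5% of the control's piRNA-sized reads. As deposited, 42.1% of the control's sequences, with 55.3% of its piRNA-sized reads, were in the deep library.

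The most abundant tags of this size included fragments of other RNAs. The tags below are printed with their first base in capitals. The first and the next are parts of 5.8S rRNA, which the reference tables do not hold, and the third comes from Rmrp, the RNA of RNase MRP. The fourth lies in the annotated noncoding transcript Gm37903, and the last matched nothing.
5.8S internal: Tagctgcgagaattaatgtgaattgca
5.8S start: Gactcttagcggtggatcactcggct
Rmrp: Agctcgctctgaaggcctgtttcctaggct
Gm37903: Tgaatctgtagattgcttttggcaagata
unmatched 27 nt: Tcaaatgatgatatcacctaaaatagc

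Their levels differed in both directions. The internal 5.8S tag stood at 1066 RPM in the stage series culture and 334 in the control, and the 5.8S start tag at 383 and 1132. The Rmrp tag stood at 586 and 283, the Gm37903 tag at 586 and 64.2, and the unmatched tag at 211 and 995. Other leading tags matched transcripts annotated as noncoding: Gm37701 (470.3 and 139 RPM), Gm37065 (374 and 433) and Gm42418 (123 and 699.6). Whether these tags come from those transcripts, from rRNA or from repeats was not tested. The largest differences downward rest on 1 or 2 control reads. They had tags in Gm37110 (886 and 1 reads), Emc1 (824 and 1), Gm3052 (948 and 2) and Gm38246 (473 and 1). Another, with 584 and 1 reads, matched nothing. It holds CCGACG, the first bases of the adapter end CCGACGATC, and whether it is an adapter product was not tested. The largest differences upward lay in tags that matched nothing. The first of these had 48 and 169 reads. It begins with the last bases of the 5′ adapter and closes with the unmatched fragment printed earlier, so some adapter products remain among these tags.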

How the data were processed

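For each library the authors deposited each distinct read, 17 to 41 nt long, beside its raw count, not normalised. Bowtie and, for mouse, the build GRCm38 stand in the submitters' processing notes, without roles; trimming is not given in the sources used here. Each library is its own group, taken from its title. The 2 libraries, the lists and the named items were chosen with earlier results of these data known.

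Reads of 18 to 26 nt were assigned to a miRNA if their first 18 bases equalled those of a RefSeq mature sequence (1738 sequences, 7 shorter ones not used, 1660 entries after joining equal starts). Reads of related miRNAs that are not in that table but share the 18 bases, as is possible in the miR-30 family, count in the listed entry. Levels are reads per 1000000 miRNA reads. A count of 0 was set to 3. Intervals are exact binomial at 95%, and cover counting error only. No genome was used: other reads were matched exactly to GENCODE vM21 transcripts. Sequences labelled as 5.8S, 18S or 28S rRNA were not available, so fragments of these remain among unmatched and piRNA-sized tags. They can also count under other annotated transcripts. Nuclear tRNA genes could not be read from the annotation as planned, so tRNA fragments were found by 9-base starts written from knowledge: GCATTGGTG, GCATGGGTG, GCATTGTGG, GCATTGGTA, GCGTTGGTG, GCGCCGCTG, TCCCTGGTG, TCCCACATG, TCCCATATG, GCCCGGCTA, GCCCGGATA, GTTTCCGTA, GGTTCCATA, GCCGTGATC, GGCCGTGAT, TCCTCGTTA, GGGGGTATA, GGGGGTGTA, GGGGATGTA, GGTTCCATG, GGCTCGTTG, GTAGTCGTG, GGTAGCGTG, GTCAGGATG, AGCAGAGTG, GCCCGGATG and GCATTTGTG. Reads sharing 14 bases with 5S rRNA or with a tRNA tag of at least 1000 reads, or holding the adapter end CCGACGATC (0.143% of reads in the stage series culture, 0.587% in the control), were left out of the piRNA-sized tags. For 3′ ends, reads with over 2 final bases off the hairpin were left out. Libraries were drawn down without replacement with a fixed seed (17).

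Named are miR-741-3p and the 5 most abundant miRNAs of each library. So are the 10 largest differences each way among miRNAs with at least 100 reads in 1 library. The extremes of each list and the 5 largest 3′ shifts each way are also named. Tags were taken from the 5 most abundant and the 5 most different each way, of which not all are named. Tools were Python 3.11.15, NumPy 2.4.6, SciPy 1.17.1, R 4.3.3, edgeR 4.0.16 (TMM factors) and DESeq2 1.42.0 (size factors), the last 2 for scaling only. The counting intervals were tested on simulated data.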

Additional observations from a re-analysis of the deposited data

How the results depend on the processing

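The count of miRNAs that differed at least 2-fold between the wild type cultures was 75 and stayed within 1.5 times of that with scaling by all reads, TMM or DESeq2 factors, full mature sequences only and starts moved by 1 base. It moved with the read minimum and depth: 142 with at least 10 reads in 1 library, 26 with at least 1000, and 25 with the stage series library drawn down to the control total. The 4-fold count of 14 became 24, 1 and 3 in these settings. In settings added after seeing the data, the 2-fold count was 16 with at least 100 reads in both libraries (0 at 4-fold) and 17 with both drawn down to the smallest miRNA total. Drawn down alike, counts of the stage series culture against pre-leptotene spermatocytes, the TALEN line and the CRISPR line went from 269, 112 and 85 to 86, 35 and 26; those of the other pairs stayed within 1.5 times. The difference in the share of 25 to 32 nt reads, -18.5 percentage points, was -9.52 over distinct sequences at unequal depths and -17.8 at 26 to 31 nt. That in first-base T, -5.87 points, was -4.96 at 26 to 31 nt and -6.46 for sequences with at least 2 reads. Over distinct sequences at unequal depths it was -1.38. With the stage series library drawn down to the control's total, 78.9% of its distinct sequences began with T, against 75.6% in the control. The log2 difference in tRNA fragments, -0.12, was -0.0598 at 30 to 34 nt and -0.47 as a ratio to miRNA reads. The cause of these moves was not tested. The 3′ end medians stayed within the spread over miRNAs. Leaving out reads that map nowhere was not run, because no genome was used. No paired analysis was possible because each side is 1 library. TMM, DESeq2 and all-read scaling moved every miRNA difference up by 0.33, 0.32 and 0.35. The median over the 320 miRNAs, -0.32, thus became 0.01 with TMM and 0.04 with all reads, and the medians of the miR-506, miR-17 and miR-106, and self-renewal lists and the difference of let-7i-5p turned above 0 with TMM.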
